A study of Mus musculus with 9 samples.

Results

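Wide peaks of 300 to 3000 bp were examined in the RNA peak lists of EZH2 and SUZ12, both core subunits of Polycomb repressive complex 2 (PRC2). Members were chosen by measured width: a peak was a member when its end minus its start was 300 to 3000 bp and its end was not a multiple of 10000, and 1511 of 49266 peaks (3.07%) met this rule. Within each library they were compared with the 37162 peaks of 100 to 200 bp. The peaks came from dCLIP, in which protein and RNA of living cells are joined by UV light, biotin-tagged protein is captured on streptavidin under stringent washing, and the RNA still attached after DNase and RNase treatment is sequenced. All libraries used here were made from female EL 16.7 mouse embryonic stem cells of CAST/Ei x 129/Sv/Jae background, differentiated for 7 days. All carried the biotin ligase BirA, together with Avi-GFP-mEzh2 in both EZH2 libraries or Avi-GFP-mSuz12 in both SUZ12 libraries, so that tagged protein expressed from a stable transgene was captured. Each library was 1 stable clone, 2 clones a protein, and p-values therefore rest on the spread between 4 clones. The mock library from empty-vector cells and the 4 PRO-seq libraries among the 9 samples were not analysed here.

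PRC2 places a repressive methyl mark on histone H3, with EZH2 as the catalytic subunit and SUZ12 as the scaffold that holds the complex together. The complex also binds RNA, and many transcripts of different kinds have been recovered with it. A peak in a crosslinking experiment marks a stretch where the recovered RNA fragments pile up, so its width depends on the length of that stretch, on how far RNase trimmed it and on how the peak caller extends and joins reads.

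Peaks were listed separately for each library and strand, and the lists held 10468 to 13951 peaks a library. Reads behind a peak were not used here, so depth is unknown and the number of peaks sets the precision of each share. Intervals below are 95% Wilson intervals and cover counting error only. Coordinates are those of mm9, counted from 1. Gene location and sequence under the peaks were not analysed here, because neither a genome nor an annotation of that build was used.

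Wide peaks were a small upper tail in every library. EZH2 replicate 1 held 378 of them, 3.61% of its peaks (interval 3.27 to 3.99%), and EZH2 replicate 2 held 399, or 3.01% (2.73 to 3.31%). SUZ12 replicate 1 held 447, or 3.86% (3.52 to 4.23%), and SUZ12 replicate 2 held 287, or 2.06% (1.83 to 2.31%). Both SUZ12 clones thus enclosed both EZH2 clones, and the means of 3.31 ± 0.427% (SD, n = 2) for EZH2 and 2.96 ± 1.27% (SD, n = 2) for SUZ12 differed by less than the spread between the SUZ12 clones. Both lists of SUZ12 replicate 2 were low, the minus strand more so, with 95 wide peaks (1.46%) against 192 (2.57%) on the plus strand. The other 6 lists ranged from 2.94 to 4.23%.

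Typical width differed between the lists. The median width of all peaks was 174 to 188 bp in the 4 EZH2 lists and 129 to 168 bp in the 4 SUZ12 lists. A median wide peak was therefore 2.05 to 2.11 times the median of its list in EZH2 and 2.28 to 2.79 times in SUZ12. With the lower limit set at 2 times the median of each list, both SUZ12 clones lay above both EZH2 clones and no longer enclosed them. By that limit 211 and 238 peaks (2.02% and 1.79%) qualified in the EZH2 libraries and 401 and 345 (3.46% and 2.47%) in the SUZ12 libraries.

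Most wide peaks were only modestly wide. Of the 1511, 926 were under 400 bp, 413 were from 400 to under 500 bp, 106 from 500 to under 600 bp, 64 from 600 to under 1000 bp and 2 were longer. Their median width was 363.5 and 393 bp in EZH2 replicates 1 and 2, and 383 and 360 bp in SUZ12 replicates 1 and 2. The limit fell on a smooth slope: 122 peaks lay in the 10 bp from the limit upwards and 119 in the 10 bp below it. Together wide peaks covered 605 kb, 7.36% of all bases under peaks. Another 6 peaks of 300 to 3000 bp ended on a multiple of 10000 and were left out by the rule, and 28 peaks were longer than 3000 bp.

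**Figure D1:**
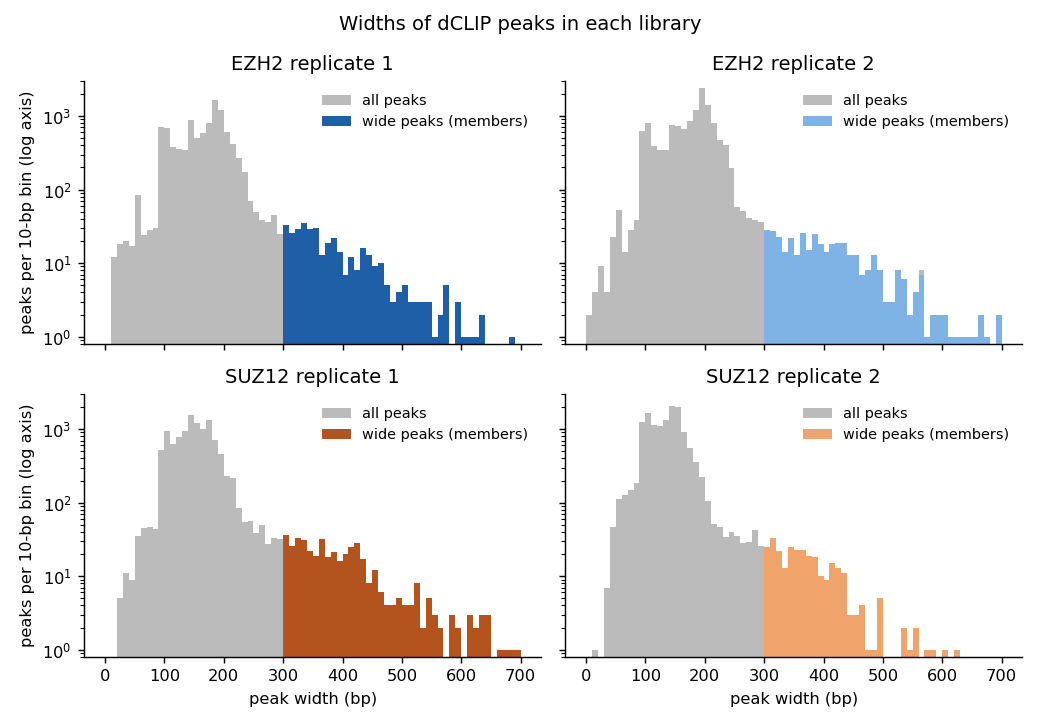
Number of peaks per 10-bp bin of width (log axis) in each library, with wide peaks in colour and all other peaks in grey. Each list has its main mass under 250 bp and a shallow tail through 300 bp, and the 31 members wider than 700 bp lie beyond the axis.

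Wide peaks carried stronger statistics than comparison peaks. The median false discovery rate (FDR), as the authors' peak caller assigned it in the deposited lists, was 1.27e-05 for wide peaks and 0.00180 for comparison peaks. Of the wide peaks, 50.0 to 56.4% a library fell among the 10% of its peaks with the lowest FDR, against 4.31 to 9.11% of comparison peaks. A weaker set existed beside them, as 187 wide peaks (12.4%) lay among the 50% of their library with the highest FDR. Width and FDR come from the same reads and the same caller, so this is a description with no test.

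Wide peaks were found again far more often than peaks of 100 to 200 bp. In EZH2, 146 of 378 wide peaks of replicate 1 (38.6%, interval 33.9 to 43.6%) met a peak of replicate 2 on their own strand, by 1 bp or more. Among comparison peaks of that library the share was 6.89% (6.33 to 7.48%). In the other direction the shares were 36.8% (32.3 to 41.7%) and 5.31% (4.86 to 5.80%). In SUZ12 they were 36% (31.7 to 40.6%) and 7.35% (6.84 to 7.89%) for replicate 1 and 31.4% (26.3 to 36.9%) and 6.63% (6.19 to 7.10%) for replicate 2. The values of wide and comparison peaks did not overlap in any pairing of libraries. The mean difference was 29.2 ± 3.27 percentage points (SD, n = 4), higher in 4 of 4 libraries (exact sign-flip permutation test, two-sided p = 0.13, the smallest that 4 libraries can give). The clones of a protein share their overlaps, counted from either side, so the 4 values are not independent and rest on 2 clone pairs, with mean differences of 31.6 points in EZH2 and 26.7 in SUZ12. As few as 2 independent values could not give a p below 0.5.

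Against the other protein the difference was similar in size. A mean of 35.5 ± 3.67% (SD, n = 4) of wide peaks was found in a library of the other protein, against 6.81 ± 0.650% of comparison peaks. The difference was 28.7 ± 3.89 percentage points, higher in 4 of 4 libraries (exact sign-flip permutation test, two-sided p = 0.13, again the smallest possible). Overlaps between the proteins are likewise counted from both sides, so these 4 values are not independent. In all 3 other libraries together, 344 wide peaks (22.8%) had an overlapping peak, against 1.55% of comparison peaks. At the other end, 727 wide peaks (48.1%) were found in no other library, against 85.5% of comparison peaks.

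A wide peak meets a 1-bp overlap more easily and is stronger, and each was addressed in turn, strength only in part. With summits within 100 bp in place of overlap, 21.3 to 25.4% of wide peaks and 4.05 to 6.63% of comparison peaks were found in the other clone. The difference fell to 18.2 percentage points and stayed positive in 4 of 4 libraries. Within 10 FDR classes of equal size, weighted by their wide peaks, comparison peaks reached 12.9 to 16.0% and the difference was 21.1 percentage points. In the class with the lowest FDR alone, 43.2 to 51.4% of wide peaks were found against 18.6 to 24.6% of comparison peaks. That class had no lower limit of FDR and held 50.0 to 56.4% of the wide peaks of a library, so wide peaks could still be stronger within it. Summit distance and FDR were not set together. Strength did not guarantee recurrence, because 55 of 189 and 68 of 220 wide peaks of that class in EZH2 replicates 1 and 2 were found in no other library, and 90 of 236 and 69 of 162 in SUZ12 replicates 1 and 2.

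**Figure D2:**
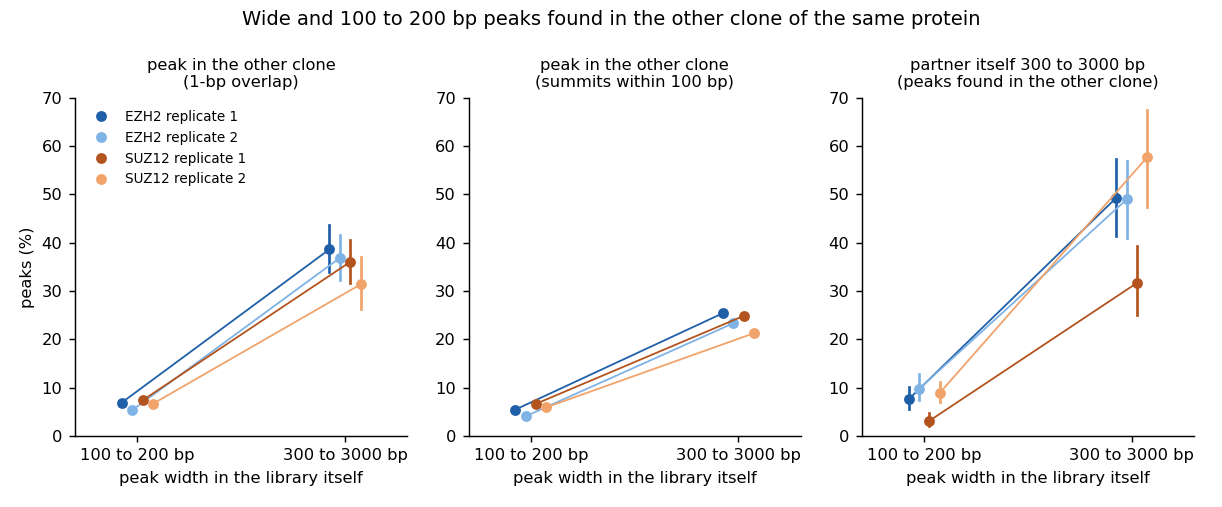
Percent of peaks in each library found again in the second clone of a protein by overlap (left) or by summit (middle), and percent of the found peaks whose partner was itself wide (right), for peaks of 100 to 200 bp and of 300 to 3000 bp. Points are libraries, lines join the values of 1 library, and bars are 95% Wilson intervals, not drawn in the middle panel. Every library rises from left to right in each panel.

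Recurrence did not grow evenly with width. Peaks of 150 to 200 bp were found in the other clone at a mean of 7.45 ± 1.65% (SD, n = 4) and those of 250 to under 300 bp at 35.7 ± 3.66%. Just past the member limit, peaks of 300 to under 350 bp stood at 30.1 ± 1.88%, lower than peaks just under it in 4 of 4 libraries. The share was 32.2 ± 7.33% from 350 to under 400 bp and 38.2 ± 3.77% from 400 to under 500 bp. Peaks of 500 to 3000 bp reached 61.9 ± 15.3%, with 65.9% and 48.2% in the EZH2 clones and 51.6% and 81.8% in the SUZ12 clones, the last from 11 peaks. By summits within 100 bp, the mean shares of the 3 classes from 300 to under 500 bp were level, at 22.0 to 22.6%, and below the 27.8 ± 3.95% of the class under the limit. The rise in sharing therefore lay between 200 and 300 bp and again above 500 bp, and not at the limit of the rule.

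**Figure D3:**
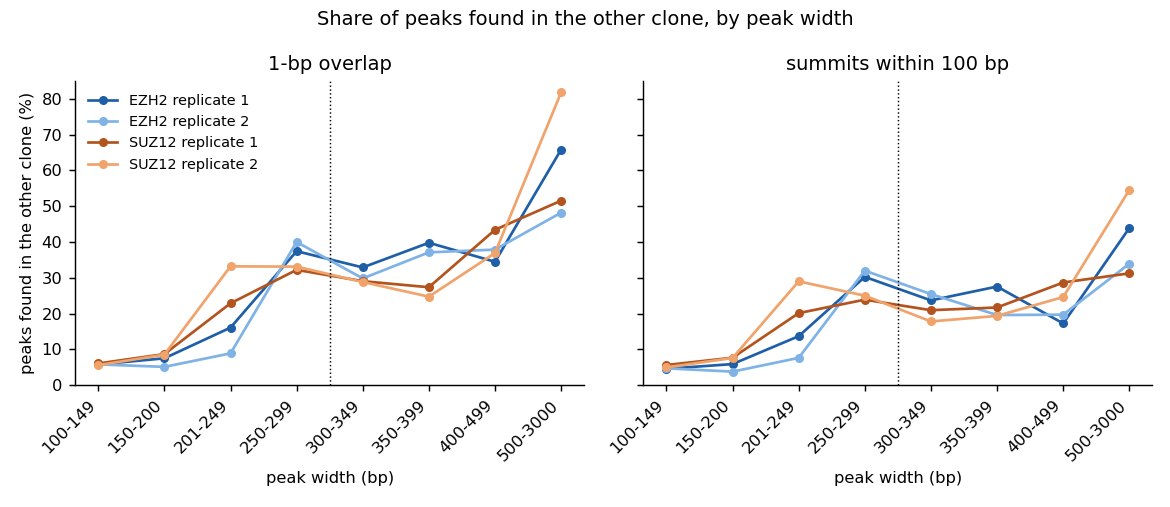
Percent of peaks found in the other clone by width class, by overlap (left) and by summits within 100 bp (right). Each line is 1 library and the dotted line marks the 300-bp limit; mean shares climb up to the class just under the limit, are lower just past it, and every library is highest in the class from 500 bp.

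Width itself recurred between clones. Where a wide peak was found in the other clone, the partner with the nearest summit was wide too in 72 of 146 cases (49.3%, interval 41.3 to 57.3%) for EZH2 replicate 1 and in 72 of 147 (49.0%, 41.0 to 57.0%) for replicate 2. For SUZ12 replicate 1 it was wide in 51 of 161 (31.7%, 25 to 39.2%) and for replicate 2 in 52 of 90 (57.8%, 47.5 to 67.5%). Among found comparison peaks, 7.57% and 9.72% of partners were wide in EZH2, and for SUZ12 3.12% and 8.90%. SUZ12 replicate 1 was low in both classes, and its partners came from the clone with the fewest wide peaks. The difference was 39.6 ± 8.42 percentage points (SD, n = 4), higher in 4 of 4 libraries (exact sign-flip permutation test, two-sided p = 0.13, the smallest possible). These values again rest on 2 clone pairs seen from either side, with mean differences of 40.5 points in EZH2 and 38.7 in SUZ12. The difference was 38.3 points within FDR classes and 47.7 points when partners were taken by summits within 100 bp.

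Pairs that were wide in both clones had their edges close together. Counting each pair from both of its sides, 247 wide peaks had a wide partner, and the median distance was 21 bp between their 5′ edges and 24 bp between their 3′ edges. The shorter peak of such a pair covered a median of 90.2% of the longer. Both edges were thus as close as those of pairs of comparison peaks, at 28 and 29 bp over 1678 peaks, although the peaks were more than 2 times as long. Summits were a median of 26 bp apart in wide pairs and 35 bp in comparison pairs, yet 74.5% of wide pairs and 88.0% of comparison pairs had them within 100 bp. The other 297 found wide peaks had a partner that was not wide, with a median width of 182 bp and a median summit distance of 71 bp. The summit of such a partner was spread over the wide peak: with the wide peak cut into 3 equal parts, 39.1% lay in the 5′ part, 28.6% in the central part and 32.3% in the 3′ part. Few wide peaks were split into several peaks in the other clone: 23 of 544 found wide peaks (4.23%) met 2 or more, against 6 of 2437 found comparison peaks (0.246%).

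Overlapping peaks on 1 strand were joined across libraries into sites, which can join peaks in chains. Wide peaks fell into 1270 of 44277 sites. A wide peak was present in 1 library at 1136 of them, in 2 at 68, in 3 at 30 and in 4 at 36. In 727 sites no other library had any peak, and 156 sites had a peak in every library, wide in some or all. Of sites wide in exactly 2 libraries, 16 were wide in both EZH2 clones and 4 in both SUZ12 clones. Mixed pairs gave 15 each for SUZ12 replicate 1 with either EZH2 clone and 9 each for SUZ12 replicate 2. The both-EZH2 count was thus close to that of the mixed pairs with SUZ12 replicate 1 and above that with replicate 2. The both-SUZ12 count was below all mixed pairs.

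The 36 sites that were wide in every library were selected on width in all 4 libraries, so the spread of their widths is a description that this choice narrows. The widest peak over the narrowest had a median ratio of 1.20, with a range of 1.09 to 2.45, and the ratio was under 1.5 at 30 of the 36 sites. SUZ12 replicate 2 was the narrowest library at 18 of them, and EZH2 replicates 1 and 2 and SUZ12 replicate 1 at 6, 5 and 7. They were evenly divided between strands, 18 on each, and 32 consisted of exactly 1 peak in each library. Chromosome 1 held 6 of them and chromosome 11 held 4, and none lay on X or Y. At 23 of the 36 sites (63.9%) no other peak of any library lay on the same strand within 20 kb. Among 244 sites with a peak but no wide peak in all 4 libraries, 112 (45.9%) were as isolated. Neither share was tested.

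**Figure D4:**
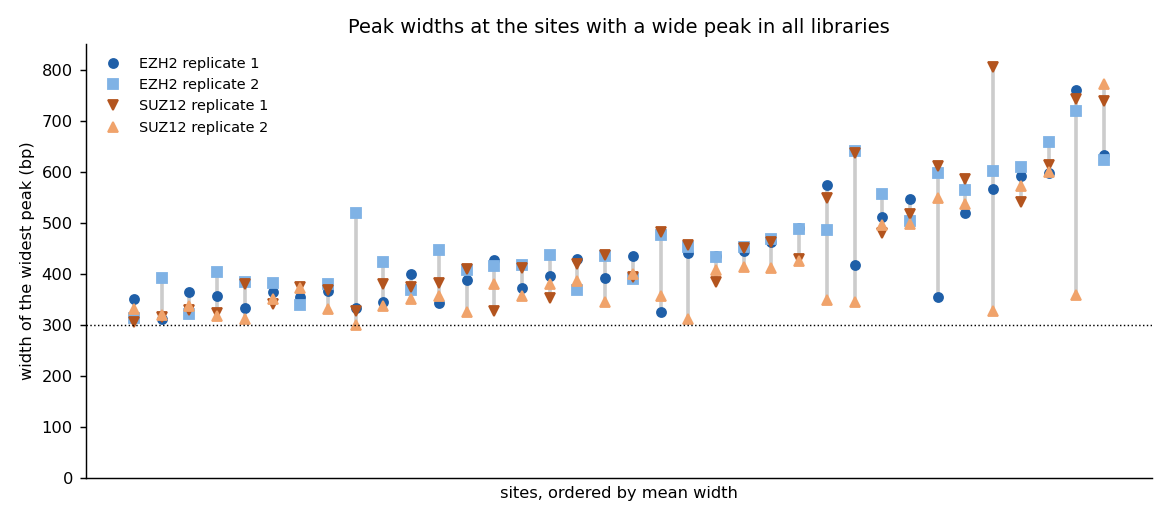
Width of the widest peak in each library at the 36 sites that had a wide peak in all 4 libraries, ordered by mean width. Each symbol is 1 library, grey bars span the 4 values and the dotted line is the 300-bp limit; at 30 sites the widest value is less than 1.5 times the narrowest.

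The 12 of these sites with the lowest weakest FDR are named here. The first, chr7:89919464-89920618 (plus strand), consisted of 2 wide peaks in every library, the ends of which overlapped. Its upstream peaks were 552, 562, 527 and 498 bp wide in EZH2 replicates 1 and 2 and SUZ12 replicates 1 and 2, and its downstream peaks 598, 658, 614 and 600 bp. Every library divided this stretch at nearly the same place, as the downstream peaks began at 89920012, 89919956, 89920005 and 89920011. The summit of the downstream peak moved more, from 89920113 in EZH2 replicate 2 to 89920520 in SUZ12 replicate 2. The upstream peaks ended at 89920020, 89920025, 89920043 and 89920031, so the division lay close to a multiple of 10000. The member rule left out peaks that ended on such a multiple. The sites chr4:78419625-78420202 and chr17:23959720-23960747, also with 2 peaks in every library, spanned such a multiple too. Whether these divisions came from the caller or from the RNA was not tested.

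Several sites on the minus strand of chromosome 1 were of similar width in the 4 clones. The site chr1:115800478-115800952 measured 463, 468, 463 and 412 bp, in the same order of libraries, with an FDR of at most 3.24e-21. The site chr1:56838841-56839294 measured 444, 452, 451 and 413 bp, and 3 of its 4 peaks had their lower edge within 3 bp of one another. At chr1:46132688-46133091 the widths were 333, 385, 381 and 312 bp, and at chr1:102076612-102077058 they were 344, 447, 382 and 356 bp. In all of these SUZ12 replicate 2 or EZH2 replicate 1 was the narrowest.

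Of the other sites, 2 stayed within a narrow range and 2 varied more. At chr10:104675212-104675647 (plus strand) the widths were 429, 369, 419 and 386 bp. At chr19:22926344-22926747 (plus strand) they were 356, 404, 323 and 318 bp. The site chr9:56071336-56071823 (minus strand) was narrower in EZH2 replicate 1 and SUZ12 replicate 2, at 326 and 357 bp, than in EZH2 replicate 2 and SUZ12 replicate 1, at 476 and 482 bp. The site chr4:78419625-78420202 (plus strand) measured 440, 453 and 456 bp in the first 3 libraries and 312 bp in SUZ12 replicate 2.

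At the remaining 3 sites the extent differed between libraries. At chr5:135421201-135422031 (minus strand) the widths were 567, 601, 804 and 328 bp, the largest ratio of widest to narrowest among the 36 sites. At chr17:23959720-23960747 (plus strand) the first 3 libraries had peaks of 760, 718 and 742 bp, whereas the widest peak of SUZ12 replicate 2 measured 358 bp. The site chr13:58228936-58229972 (minus strand) was a chain: the wide peak of EZH2 replicate 2 ended at 58229420, before that of SUZ12 replicate 2 began at 58229570. That site counts as wide in every library although no stretch was common to the wide peaks of all 4.

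Some of the 36 sites had a high FDR. Chosen after their values were seen, the site chr14:20110616-20111228 (plus strand) measured 592, 610, 540 and 572 bp with a weakest FDR of 0.00916. The site chr11:108872896-108873480 (minus strand) measured 520, 564, 585 and 537 bp with a weakest FDR of 0.00571. Both exceeded 500 bp in each library, and neither had another peak on its strand within 20 kb.

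Of the widest members of the 4 libraries, only that of SUZ12 replicate 2 lay at a site wide in every library. The widest of all, 1866 bp at chr4:11894229-11896094 (plus strand) in SUZ12 replicate 1, had an FDR of 0.00113 and no peak in any other library. The widest in EZH2 replicate 1, 870 bp at chr11:116713898-116714767 (minus strand), met a peak of 178 bp in SUZ12 replicate 1 and none elsewhere. The widest in EZH2 replicate 2, 805 bp at chr7:97591852-97592656 (plus strand), met a peak of 798 bp in SUZ12 replicate 1 and none in the other clone of EZH2. In SUZ12 replicate 2 the widest, 772 bp at chr17:23014361-23015156 (plus strand), lay at 1 of the 36 sites, with 632, 623 and 739 bp in the other libraries.

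Some sites were wide in both clones of 1 protein and at most narrow in the other. There were 9 such sites among the 71 wide in both EZH2 clones and 2 among the 51 wide in both SUZ12 clones. At these the other protein had no peak or only peaks under 200 bp. That limit was the same for both proteins although SUZ12 peaks were typically narrower, so the 2 counts are not on an equal footing. Mixed pairs of libraries were not counted by this rule. Ordered by the weaker FDR of their wide peaks alone, the first EZH2 site, chr1:144990140-144990644 (minus strand) measured 391 and 427 bp, against 152 bp in SUZ12 replicate 1 and no peak in SUZ12 replicate 2. The next, at chr10:126623889-126624376 (minus strand), measured 458 and 435 bp against 103 bp and none. At chr10:127830603-127831406 (plus strand) the EZH2 widths were 577 and 387 bp, with none in SUZ12 replicate 1 and 161 bp in replicate 2. At chrX:132781048-132781446 (plus strand) they were 399 and 345 bp, and neither SUZ12 library had a peak.

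The 2 SUZ12 sites were of the same kind. At chr4:155552074-155552453 (minus strand) the SUZ12 widths were 349 and 319 bp, with an FDR of 1.10e-13 in replicate 1, and neither EZH2 library had a peak. At chr10:118921138-118921514 (plus strand) they were 377 and 303 bp, against 199 bp in EZH2 replicate 1 and none in replicate 2. These sites were chosen for their difference, so it is described and not tested.

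Widths of EZH2 and SUZ12 were then compared by limma over the 399 sites with a peak in every library and none ending on a multiple of 10000, of which 155 held a wide peak. No site passed an adjusted p of 0.05 in limma (0% called in either direction), and 28 sites had an unadjusted p under 0.05 (7.02%), 13 of them with a wide peak. At 40 of the 155 sites (25.8%) both EZH2 peaks were wider than both SUZ12 peaks, against 41.1% of all 399 sites. At 12 (7.74%) both SUZ12 peaks were wider, against 4.76% of all sites. The median difference, SUZ12 minus EZH2, was -0.14 on the log2 scale at sites with a wide peak and -0.23 over all sites. Median widths at the tested sites were 227 and 234 bp in EZH2 replicates 1 and 2, and 214 and 182 bp in SUZ12. With log2 widths centred on each library's median over these sites, the median differences were 0.09 and -0.0039. The value over all sites is small by construction of this centring. At sites with a wide peak the direction turned once the library medians at the tested sites were taken out. Unadjusted 95% intervals reached a median of 0.66 (log2) to either side of a site's value, a factor of 1.59.

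The 5 sites with a wide peak and the smallest adjusted p, named although none passed, went in both directions. At chr16:20692207-20693000 (plus strand) the widths were 207 and 206 bp for EZH2 against 518 and 491 bp for SUZ12, a log2 difference of 1.29 ± 0.14 (SE, limma adjusted p = 0.182). At chr12:114174811-114175724 (minus strand) they were 170 and 204 bp for EZH2 against 497 and 468 bp for SUZ12. The site chr13:113368332-113369027 (minus strand) went the other way, with EZH2 widths of 686 and 666 bp against SUZ12 widths of 273 and 218 bp. So did the site chr6:28376144-28376682 (plus strand), which was also among the 9 EZH2 sites above, with 439 and 539 bp against 138 and 174 bp. The fifth, at chrX:73374156-73374735 (minus strand), had EZH2 widths of 575 and 522 bp and SUZ12 widths of 207 and 146 bp, a log2 difference of -1.66 ± 0.24 (SE, limma adjusted p = 0.199). At each of these 5 sites the widths of the proteins did not overlap, which the choice by smallest p favours. Over all 399 sites the widths also did not overlap at 41.1% (EZH2 wider) and 4.76% (SUZ12 wider).

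No lean of the summit to 1 end of wide peaks passed the spread between libraries. On a scale from 0 at the 5′ end of the peak to 1 at its 3′ end, the mean summit position was 0.478 and 0.50 in EZH2 replicates 1 and 2, and 0.497 and 0.479 in SUZ12. The difference from comparison peaks was -0.0042 ± 0.011 (SD, n = 4), lower in 3 of 4 libraries (exact sign-flip permutation test, two-sided p = 0.625). The summit was nevertheless seldom central: 26.5% and 26.6% of wide peaks in EZH2 and 15.0% and 9.41% in SUZ12 had it in the central of 3 equal parts, against 36.2% and 34.8% and 50.3% and 53.0% of comparison peaks. The share was lower for wide peaks in 4 of 4 libraries, with a larger gap in both SUZ12 clones, a comparison made after the values were seen (exact sign-flip permutation test, two-sided p = 0.13, the smallest possible). Wide peaks had their summit a median of 72 to 98 bp from the nearer edge and 296 to 308 bp from the farther one. Typical comparison peaks were 43 to 50 bp and 91 to 117 bp from theirs. In each peak both distances add up to the width by which the classes were chosen, so longer distances in wide peaks follow from that choice. The central part is likewise a fraction of that width.

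Wide and comparison peaks did not differ in neighbours beyond the spread between libraries. Another summit of the same library and strand more than 3 kb and up to 20 kb away was present for 43.7% and 46.1% of wide peaks in EZH2 and 47.7% and 44.3% in SUZ12, against 40.2%, 46.4%, 44.7% and 44.2% of comparison peaks. The difference of 1.57 ± 1.93 percentage points (SD, n = 4) was positive in 3 of 4 libraries and smaller than its spread (exact sign-flip permutation test, two-sided p = 0.375). Within FDR classes it turned to -3.39 points, negative in 4 of 4 libraries.

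Peaks on both strands were rare. Within 500 bp of the summit, an opposite-strand summit of the same library was found for 3 of 378, 4 of 399, 6 of 447 and 4 of 287 wide peaks, a mean of 1.13 ± 0.285% (SD, n = 4) against 0.213 ± 0.0678% of comparison peaks. The difference of 0.920 percentage points was positive in 4 of 4 libraries (exact sign-flip permutation test, two-sided p = 0.13, the smallest possible). These 17 peaks came from few places: chr7:89919464-89920618 on both strands, chr5:115301724-115302125 (plus strand) in every library, the neighbourhood of chr1:24618674-24619380 (minus strand), and 1 peak each on X and chromosome 10. Most of these places recurred across libraries, so the 4 values are not independent. Without the 50-kb window of chromosome 7 the difference was 0.486 percentage points.

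Chromosomes differed in their share of wide peaks. Chromosome 11 held 161 wide peaks, chromosome 1 held 152 and chromosome 10 held 126. Their mean shares of the wide peaks of a library were 10.7%, 10.0% and 8.52%, against 7.41%, 5.90% and 5.06% of comparison peaks, higher in 4 of 4 libraries for each. Chromosomes 2, 5, 8 and 16 had a lower share of wide than of comparison peaks in 4 of 4 libraries, for example 5.49% against 7.75% for chromosome 2. Chromosome 19, with 52 wide peaks, was also higher in 4 of 4, at 3.43% against 2.94%. Over 4 libraries no exact sign-flip permutation test can go below p = 0.13, and 20 chromosomes were compared. Chromosome X carried 57 wide peaks, a mean of 3.73 ± 0.462% (SD, n = 4) against 3.67 ± 0.304% of comparison peaks, a difference of 0.0569 ± 0.570 percentage points (exact sign-flip permutation test, two-sided p = 1).

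Chromosomes 1, 10 and 11 are also the first in the order in which all 8 lists number their peaks. The median width of all peaks on these chromosomes was 188 bp against 171 bp elsewhere in EZH2 replicate 1, 198 against 184 bp in EZH2 replicate 2 and 147 against 136 bp in SUZ12 replicate 2. In SUZ12 replicate 1 it was 150 against 151 bp. The share of peaks that were wide was 6.08% against 2.98%, 4.77% against 2.56% and 3.02% against 1.83% in the former 3 libraries and 4.63% against 3.68% in SUZ12 replicate 1. The median p of all peaks, expressed as its number of halvings from 1, was the same inside and outside these chromosomes, at 10, 10, 10 and 11. As p was mostly a whole power of 0.5, such medians tie easily. For wide peaks it was 20 inside against 18 outside and 18 against 21.1 in EZH2 replicates 1 and 2. In SUZ12 replicates 1 and 2 it was 22 against 18 and 22 against 22. The part of this order in the chromosome shares was not tested. Without these chromosomes wide peaks were still found more often in the other clone, by 27.3 percentage points, in 4 of 4 libraries.

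**Figure D5:**
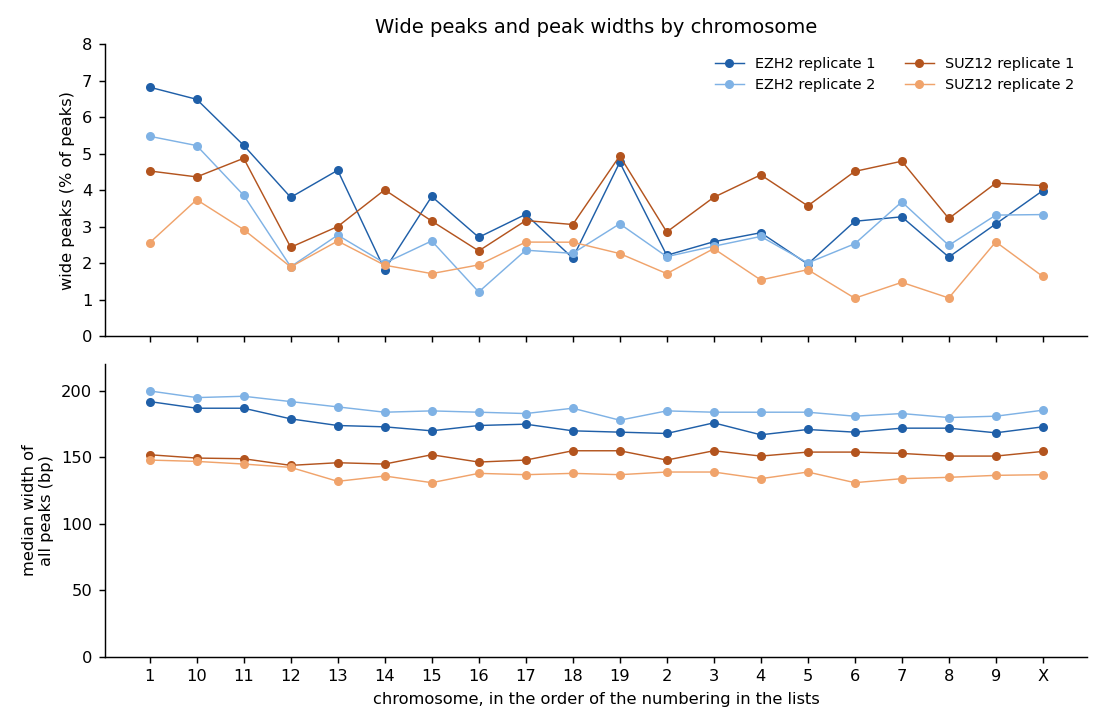
Percent of peaks that were wide (top) and median width of all peaks (bottom) for each chromosome, in the order in which the lists number their peaks. Each line is 1 library; in the lower panel EZH2 replicates 1 and 2 and SUZ12 replicate 2 have their 3 highest values at chromosomes 1, 10 and 11, and SUZ12 replicate 1 does not.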

How the data were processed

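The authors deposited 1 PeakRanger peak list per dCLIP library and strand, 8 in all, with start, end, summit, p-value and FDR of each peak. Upstream of the lists, reads were handled with bedtools 2.17.0, SAMtools 0.1.18, TopHat2 2.0.8 and Trim Galore 0.3.3 on mm9, per the submitters' processing notes, which give no order. For the caller, version, settings and control are not given in the sources used here. FDR was used to rank peaks within a library.

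Members and lists were chosen with earlier results of these data known. Wide and comparison peaks of a library gave 1 difference, and 4 differences were tested by exact sign flips. Peaks shared a site when they overlapped by at least 1 bp on the same strand. Widths per site, as log2 bp of the widest deposited peak, were compared by limma-trend with Benjamini-Hochberg adjustment. No count model was used, since a list of peaks holds no reads. Named regions were at most 12 sites wide in 4 libraries, the widest peak of a library, at most 5 sites wide in 1 protein only, and at most 10 sites past the limma threshold. Gene lists, gene location and GC content were not analysed here.

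Alternatives covered other overlaps, summit distances, width limits, FDR classes, the stronger 50% of each list, each library left out, and the replicate number as a block. Leaving out chromosomes 1, 10 and 11, or a window of chromosome 7, and limits relative to each list were chosen after seeing the data.

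Software was limma 3.58.1 under R 4.3.3, and SciPy 1.17.1, pandas 2.3.3, NumPy 2.4.6 and Matplotlib 3.10.9 under Python 3.11.15. In a simulation, 399 sites were drawn with 1 SD for all, 0.474 on the log2 scale, pooled over the real clones. There limma called 6 of 30 sites changed by 1 on the log2 scale, 29 of 30 changed by 2 and 0 of 339 unchanged sites. Real sites were unequal in spread, with limma SEs of, for example, 0.06 and 0.94. The simulated counts therefore do not give the power of limma in these data.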

Additional observations from a re-analysis of the deposited data

How the results depend on the processing

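Sharing of wide peaks with the other clone exceeded that of comparison peaks in every library under all 13 alternatives. The difference was 15.9 percentage points with a 50% reciprocal overlap, 18.2 with summits within 100 bp and also with peaks set to 100 bp, 21.1 within FDR classes and 55.3 for members of 500 to 3000 bp. With a library left out it was 28.3 to 30.6. For the other protein these were 16.0, 17.6, 17.6, 20.1, 56.1 and 27.2 to 30.3. The wide-partner difference moved by less than its spread in all 10 alternatives, with 36.5 to 43.3 when a library was left out. The opposite-strand difference was 0.566 for summits within 200 bp, 4.73 for members of 500 to 3000 bp, 0.486 without the chromosome 7 window and 0.849 to 1.04 with a library left out. The neighbour difference turned to -3.39 within FDR classes, -4.38 for members of 500 to 3000 bp and -1.14 among the stronger 50% of each list by FDR, and was 0.930 to 2.18 with a library left out. The summit position difference was -0.0082 to 0.00097 with a library left out, turning without EZH2 replicate 1. The chromosome X difference was -2.17 for members of 500 to 3000 bp, 0.802 without chromosomes 1, 10 and 11 and -0.0624 to 0.340 with a library left out. The causes were not tested.

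No site passed limma's adjusted threshold in the alternatives that kept all 4 libraries. In these, 21 to 29 of 399 sites had an unadjusted limma p under 0.05. Among sites with a peak in at least 3 libraries it was 55 of 930. Leaving a library out left 1 protein with 1 clone, so only the median difference is given for those fits. The median log2 width difference at sites with a wide peak turned to 0.0875 with centred libraries and was -0.261 to -0.0038 with a library left out. Same-numbered clones shared only a number: their deviations correlated at -0.023 across sites, and with the replicate number as a block 0 sites passed and 21 had an unadjusted p under 0.05. Gene location and GC content were not run. Peak lists carry no depth, so shares are limited by 287 to 447 wide peaks a library.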

Other observations

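Most windows with a wide peak held a single one. Of 1169 windows of 50 kb per strand with a wide peak, 973 held only 1 and 43 held 4 or more, with 185 wide peaks in all. The chromosome 7 stretch, divided in every library as described above, held 8 wide peaks, all 8 peaks of its window. Besides it, chr1:24600001-24650000 (minus strand) held 6 wide among 18 peaks, with at least 1 from every library. The window chr6:122650001-122700000 (minus strand) held 6 wide among 28 peaks, of which 4 came from SUZ12 replicate 1 and none from SUZ12 replicate 2. The windows chr1:46100001-46150000 (minus strand) and chr1:56800001-56850000 (minus strand) held exactly 4 peaks each, 1 from each library, and each of them was wide.

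The caller's p-values had a regular form. Within 0.0001 of the exponent, p was a whole power of 0.5 for 98.4 to 99.5% of comparison peaks and for 77.4 to 80.3% of wide peaks. The median wide peak stood at 18.3 and 21 halvings in the EZH2 libraries and at 19 and 22 in the SUZ12 libraries, against 10, 10, 10 and 11 for comparison peaks. Wide peaks found in no other library had a median width of 366 bp and 16 halvings, and those found in all others 391.5 bp and 33.3 halvings.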
